A study of Homo sapiens with 6 samples.

Results

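The genes described here build and attach the sugar chains of glycoproteins and glycolipids. They are 45 symbols of the hexosamine pathway, of N- and O-glycan synthesis and of sialylation, listed by name with earlier results of these data known. Of these, 44 had a row among the 55765 gene symbols counted. EDEM3P had none, and EDEM3, a different symbol, is given below among the other genes of the pathway. The counts come from the human prostate cancer (PCa) cell line C4-2, an established castration-resistant derivative of LNCaP. Of the 6 cultures, 3 received the solvent DMSO and 3 received 1 nM of R1881 (methyltrienolone), a synthetic androgen used here at a supraphysiological androgen level (SAL), and RNA was taken after 72 h. All 6 were grown in DMEM with fetal bovine serum and carried no engineered change named in the labels, so both groups describe 1 cell line at 1 dose and 1 time. The replicates were independent experiments by the study's account, and the libraries of either group are numbered 1 to 3.

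A sugar is transferred to a protein only from an activated donor. The hexosamine pathway turns fructose 6-phosphate into UDP-GlcNAc, which feeds N-glycans, O-GlcNAc and the synthesis of sialic acid. N-glycans are preassembled on the lipid dolichol, transferred whole to the nascent protein in the endoplasmic reticulum, and then trimmed and rebuilt in the Golgi. Mucin-type O-glycans start with a single GalNAc in the Golgi and are extended, branched and often capped with sialic acid. Prostate luminal cells are secretory, and prostate-specific antigen, the product of KLK3, is itself an N-glycosylated protein.

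After removal of rRNA genes, the libraries held between 6931042 and 9776990 counts. KLK3, KLK2, TMPRSS2 and FKBP5, known to be induced by androgen, all rose, with log2 fold changes from 0.77 to 3.36. All 8 luminal prostate markers listed were expressed, and none of 3 basal epithelial or 4 leukocyte markers had more than 3 counts in a library. Of 5 fibroblast and smooth muscle markers, 1 rose (ACTA2, a smooth muscle actin, named after its values were seen), and the summed level of the 5 was between 6.94 and 15.6 CPM in DMSO and between 16.5 and 21.4 CPM in SAL. All 8 proliferation genes listed fell, by 0.49 to 1.02 on the log2 scale. Their summed level was between 1302 and 2139.8 CPM in DMSO and between 831 and 1405 CPM in SAL, and the part of these markers in the changes below was not tested. In bulk samples, fewer cells with a transcript and less of it per cell cannot be told apart.

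Levels are CPM, counts scaled to 1e+06 per TMM-adjusted library, and changes are log2 fold changes of SAL over DMSO, with their standard error (SE), from edgeR with the replicate number as a block. An adjusted p under 0.05 over all 16835 genes tested made a call. By this measure 16 of the 42 members tested rose and 3 fell, while 11.5% of all genes tested rose and 9.37% fell. The median log2 fold change was 0.21 over the members tested and -0.0011 over all genes tested. The members that rose were GFPT1, GNPNAT1, PGM3, UAP1, CMAS, RPN1, GALNT7, GCNT1, GCNT2, B4GALT1, B3GNT2, ST6GALNAC1, ST6GAL1, ST3GAL4, CSGALNACT1 and B3GAT1, and those that fell were MAN1A1, FUT8 and GALNT3. All 19 changed in the same direction in the 3 same-numbered pairs. The 23 members not called had log2 fold changes from -0.45 to 0.36, of which 18 were above 0, and 4 of them had an unadjusted p under 0.05. B3GAT1, counted among those that rose, passed the filter on low counts through its SAL libraries alone. The members were listed with earlier results of these data known, so these counts are a description. The other two members, GALNT12 and CHST2, did not pass the filter on low counts and were not tested.

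**Figure D1:**
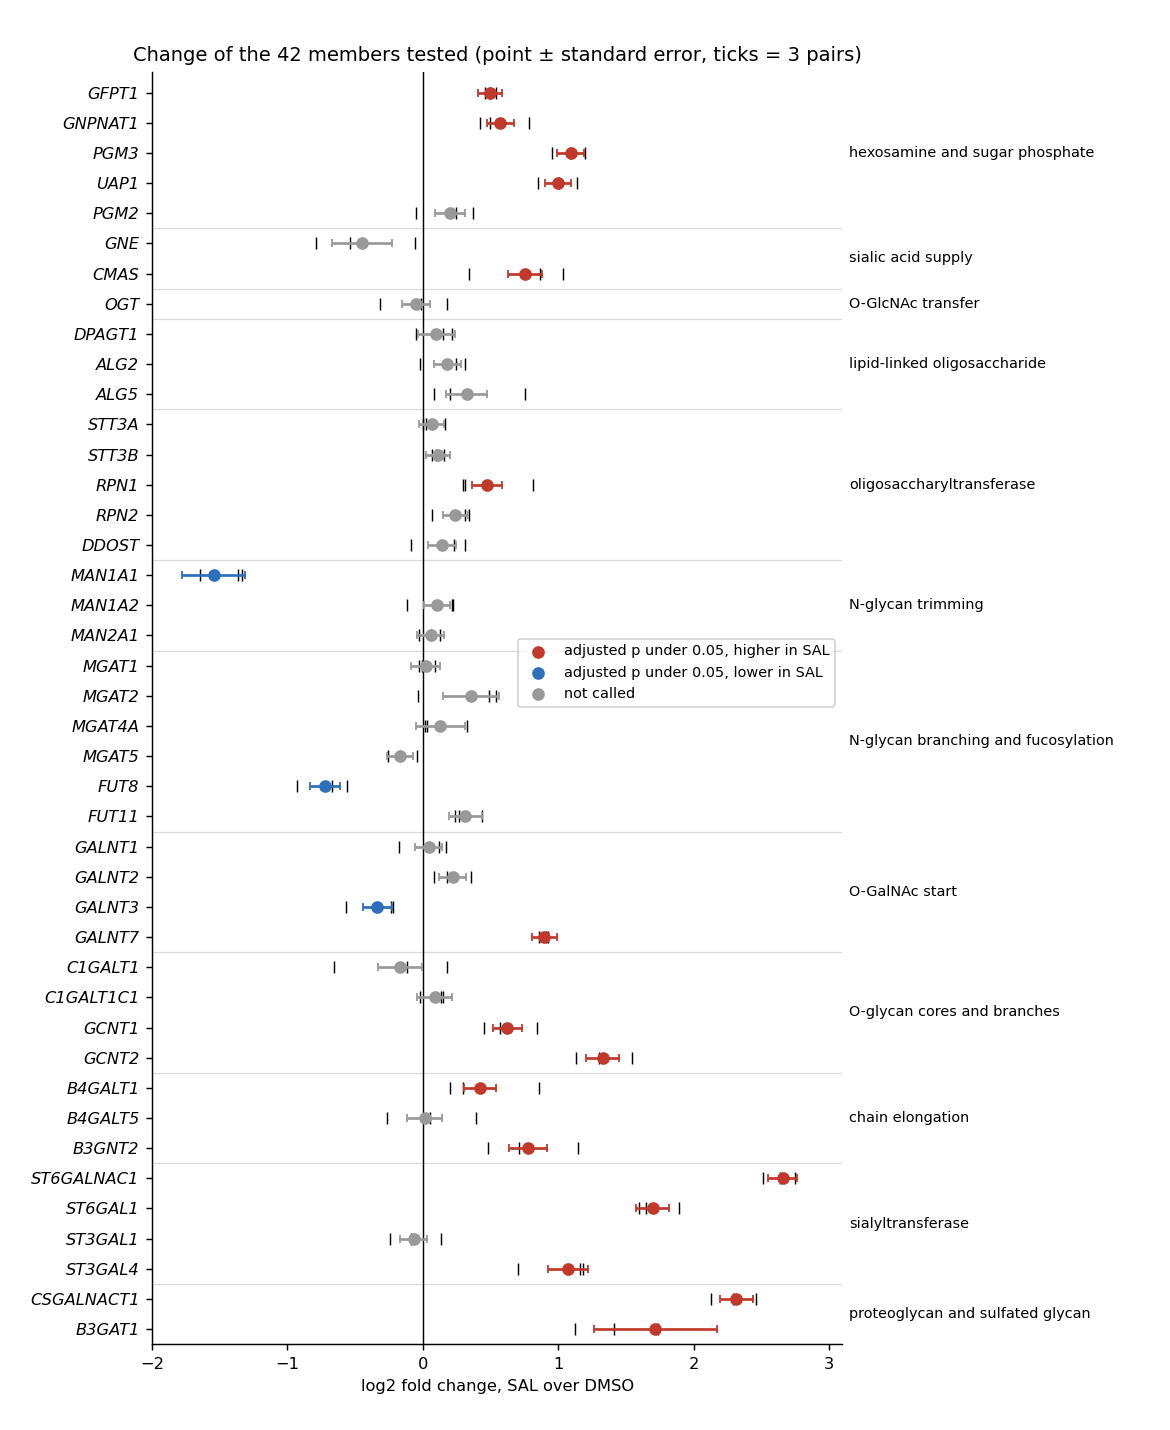
Log2 fold change of SAL over DMSO for the 42 members tested, grouped by role, with the standard error as the bar and the differences of the 3 same-numbered pairs as vertical ticks. Red points (16) rose and blue points (3) fell at an adjusted p under 0.05, and the largest change is that of ST6GALNAC1 at 2.66.

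Samples with the same replicate number resembled each other more than samples of the same treatment. The replicate number took 63.5% of the sum of squares of the members' log2 CPM and the treatment 34.9%, against 77.1% and 16.8% over all genes tested. Every member called therefore has to be read pair by pair. In 10 of the 42 members the groups did not overlap, 9 of them higher in SAL and 1 lower. The 9 include B3GAT1, which passed the filter on low counts through its SAL libraries alone. Of all genes tested 7.51% had groups that did not overlap (3.78% higher and 3.73% lower). Without the replicate block, edgeR called none of the 42 (5 had an unadjusted p under 0.05).

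The difference between replicate numbers went with base composition. Averaged over both treatments, the log2 CPM of replicate 2 minus that of replicate 1 ranged from -1.54 for PGM3 to 2.72 for B4GALT1. Across the 42 members it had a Pearson correlation of 0.72 with the GC content of their exons, which ranged from 36.1% to 57.1%. This is a description across genes that share the same 6 libraries. The log2 fold change of SAL over DMSO correlated with GC content at 0.22, and a correction of each library for GC content and exon length left 16 members called up and 3 called down.

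**Figure D2:**
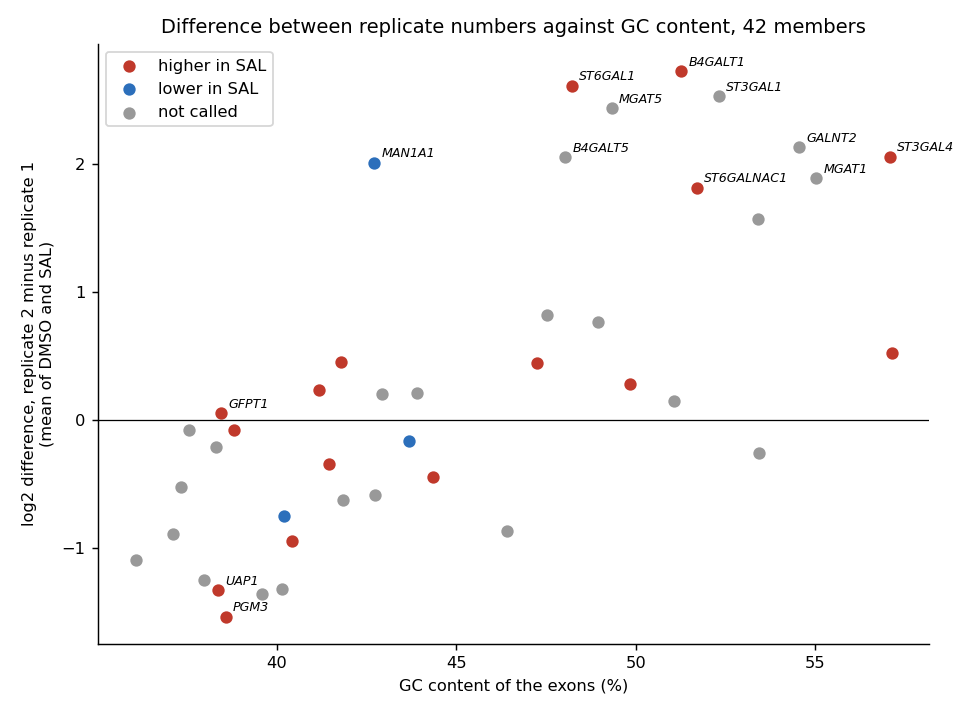
Log2 CPM of replicate 2 minus replicate 1, averaged over DMSO and SAL, against the GC content of the exons in percent, with 1 point for each of the 42 members tested, coloured by its call in SAL against DMSO. The points climb from PGM3 at -1.54 on the left to B4GALT1 at 2.72, and members that rose lie at both ends.

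The 4 members that make UDP-GlcNAc from fructose 6-phosphate all rose under SAL. GFPT1 catalyses the first and rate-limiting step, GNPNAT1 acetylates glucosamine 6-phosphate, PGM3 moves the phosphate, and UAP1 joins the sugar to UDP. Of 9 further genes listed for hexosamine and sugar phosphates, 8 were tested and 1 rose (HK1), beside 11.5% of all genes tested. Among these 9, UAP1L1 was not called, at 0.23 (SE 0.14 and adjusted p = 0.289), and GFPT2 was under the filter on low counts. In DMSO replicates 1, 2 and 3 UAP1 had 344, 144 and 238 CPM, and in SAL replicates 1, 2 and 3 it had 689.8, 259 and 523 CPM, the order kept below. Each SAL library was well above its partner, although SAL replicate 2 stayed near DMSO replicate 3 and the groups overlapped. The change of UAP1 (chromosome 1, 162531512 to 162571030, plus strand in GRCh37) came to 1.00 (SE 0.09 and adjusted p = 1.82e-06), and the pairs gave 1.00, 0.85 and 1.14.

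PGM3 behaved alike, from 69.6, 24.9 and 53.3 CPM in DMSO to 148, 48.6 and 123 CPM in SAL. Again replicate 2 was lowest in either group and the groups overlapped, while the pairs differed by 1.08, 0.96 and 1.20 on the log2 scale. The log2 fold change came to 1.09 (SE 0.10 and adjusted p = 1.30e-06). GNPNAT1 had 169.6, 99.8 and 106 CPM in DMSO and 293, 134 and 149 CPM in SAL, a change of 0.57 (SE 0.10 and adjusted p = 6.97e-04), with the largest difference in pair 1. Annotated exons of a gene on the other strand cover 35.6% of its exon bases, and the counting did not use strand.

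GFPT1 differed from the other 3 in its even level across replicates. It stood at 262, 279 and 264 CPM in DMSO and 382, 384 and 371 CPM in SAL, so that every SAL library lay above every DMSO library. The change was 0.50 (SE 0.09 and adjusted p = 8.13e-04), and without replicate 3 it was 0.50 with an adjusted p of 0.0941. PGM2, a related phosphomutase that acts on pentose and glucose phosphates rather than on hexosamine, was not called, at 0.20 (SE 0.11 and adjusted p = 0.226).

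The promoters of the 4 hexosamine genes are shown because these genes moved together. The sequences are the 250 bases upstream of the RefSeq start in GRCh38.p14, 5′ to 3′ on the strand of the gene, at chr2:69387228-69387477, chr14:52791608-52791857 and chr6:83193266-83193515 on the minus strand and chr1:162561281-162561530 on the plus strand. Capitals mark the GC box GGGCGG on either strand.
GFPT1: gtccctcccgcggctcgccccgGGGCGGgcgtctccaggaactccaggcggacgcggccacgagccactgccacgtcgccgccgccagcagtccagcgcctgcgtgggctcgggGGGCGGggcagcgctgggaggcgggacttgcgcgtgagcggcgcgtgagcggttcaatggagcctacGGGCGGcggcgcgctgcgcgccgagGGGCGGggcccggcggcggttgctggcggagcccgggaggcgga
GNPNAT1: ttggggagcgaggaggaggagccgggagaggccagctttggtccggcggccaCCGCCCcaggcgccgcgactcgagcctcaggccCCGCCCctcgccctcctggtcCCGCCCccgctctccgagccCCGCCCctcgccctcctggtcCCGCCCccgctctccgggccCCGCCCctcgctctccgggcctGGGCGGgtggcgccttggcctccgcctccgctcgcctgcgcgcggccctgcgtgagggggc
PGM3: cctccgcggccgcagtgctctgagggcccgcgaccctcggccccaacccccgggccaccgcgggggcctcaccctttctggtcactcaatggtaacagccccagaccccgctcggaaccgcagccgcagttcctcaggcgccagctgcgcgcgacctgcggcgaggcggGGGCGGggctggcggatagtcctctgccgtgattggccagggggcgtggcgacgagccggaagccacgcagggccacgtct
UAP1: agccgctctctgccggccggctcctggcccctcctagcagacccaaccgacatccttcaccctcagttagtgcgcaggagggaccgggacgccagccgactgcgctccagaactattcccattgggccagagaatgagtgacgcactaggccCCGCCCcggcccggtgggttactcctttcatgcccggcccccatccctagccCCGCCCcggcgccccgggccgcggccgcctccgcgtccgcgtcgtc
All 4 are rich in G and C, with 80.0%, 80.8%, 74.0% and 71.2%, where the median over 35116 RefSeq promoters is 58.0%.

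Windows of 300 bases, 250 upstream and 50 downstream of the start, matched 36 of the 44 members found, 13 of them among the 16 that rose. Those not matched were STT3B, RPN1, MAN1A2, MGAT4A, FUT11, ST6GALNAC1, ST3GAL1 and CSGALNACT1. The 36 windows were searched on both strands for the androgen response element (AGAACA and TGTTCT with 3 bases between them), its half-site AGAACA (which lies inside the full element), the E-box CACGTG, the cAMP response element TGACGTCA, the ER stress element (CCAAT and CCACG with 9 bases between them), the TATA box TATAAA and the GC box. The full androgen response element, the cAMP response element and the ER stress element were in none of the 36, and in 0.00285%, 1.85% and 0.0769% of all RefSeq promoters. The half-site was in 4 of the 36, DPAGT1, C1GALT1C1, GCNT2 and FUT8, and in 14.8% of all. The E-box was in 3 (PGM2, DDOST and ST3GAL4) and in 7.26% of all, the TATA box letters in 1 (CMAS) and in 11.5% of all, and the GC box in 27 and in 44.95% of all. These are matches of letters within the window and not measured binding sites.

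Of the genes that supply sialic acid, the one that activates it rose and the one that starts its synthesis did not pass the test. CMAS couples sialic acid to CMP, the form used by every sialyltransferase. Its level was even in DMSO, 45.7, 45.7 and 48.1 CPM, and was 93.9, 58.0 and 88.0 CPM in SAL, above DMSO in all libraries and least so in replicate 2. The change was 0.76 (SE 0.13 and adjusted p = 5.96e-04). GNE, which makes the precursor ManNAc from UDP-GlcNAc, was low, at 7.66 ± 1.55 CPM in DMSO and 5.76 ± 2.39 CPM in SAL (SD, n = 3), with a change of -0.45 (SE 0.22 and adjusted p = 0.180) and a lower value in SAL in all 3 pairs. OGT, the only enzyme that places O-GlcNAc on nuclear and cytosolic proteins, had 320.1 ± 77.0 CPM in DMSO and 317 ± 106 CPM in SAL, a change of -0.05 (SE 0.10 and adjusted p = 0.789).

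The sialyltransferases, which cap chains with sialic acid, held the largest change among the members. ST6GALNAC1, which adds sialic acid to the first GalNAc of an O-glycan and so makes sialyl-Tn, had 11.03, 37.7 and 26.5 CPM in DMSO and 64.3, 236 and 179.8 CPM in SAL. The lowest SAL library was above the highest DMSO library, even though replicate 1 was far lower than the others in both groups. The fold change was 6.32, or 2.66 on the log2 scale (SE 0.11 and adjusted p = 1.33e-10), and the pairs gave 2.52, 2.64 and 2.75. The gene lies on chromosome 17, 74620843 to 74639868, minus strand (GRCh37).

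ST6GAL1, which sialylates the galactose ends of N-glycans in alpha-2,6 linkage, rose from 4.96, 34.3 and 16.8 CPM in DMSO to 19.1, 108 and 51.4 CPM in SAL. The groups overlapped, since SAL replicate 1 was below DMSO replicate 2, but every pair rose, by 1.89, 1.65 and 1.60. Its change was 1.70 (SE 0.12 and adjusted p = 1.06e-07). ST3GAL4, which places sialic acid in alpha-2,3 linkage on galactose ends, had 7.06, 25.4 and 10.6 CPM in DMSO and 11.7, 58.2 and 23.9 CPM in SAL, a change of 1.07 (SE 0.15 and adjusted p = 8.55e-05). Here, too, replicate 2 was the highest in both groups.

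ST3GAL1, which caps core 1 O-glycans, did not pass the test. It had 186, 1224 and 818 CPM in DMSO and 204, 1036 and 769 CPM in SAL, so that its replicates spread widely and its pairs did not share a direction. The change was -0.07 (SE 0.10 and adjusted p = 0.688). Per kb of canonical transcript, ST3GAL1 was nevertheless the most abundant of the 4 in every library. Its part of the summed CPM per kb of the 4 sialyltransferases was 74.7%, 83.2% and 85.8% in DMSO but 45.5%, 50.6% and 54.2% in SAL. The part of ST6GALNAC1 went from 11.9%, 6.93% and 7.49% to 38.6%, 31.1% and 34.2%. Within a library such shares do not depend on its depth, and those of either gene did not overlap between the groups. The shares of a library add up to a fixed whole. The lower share of ST3GAL1 is therefore not a result apart from the rise of the other genes in the sum.

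**Figure D3:**
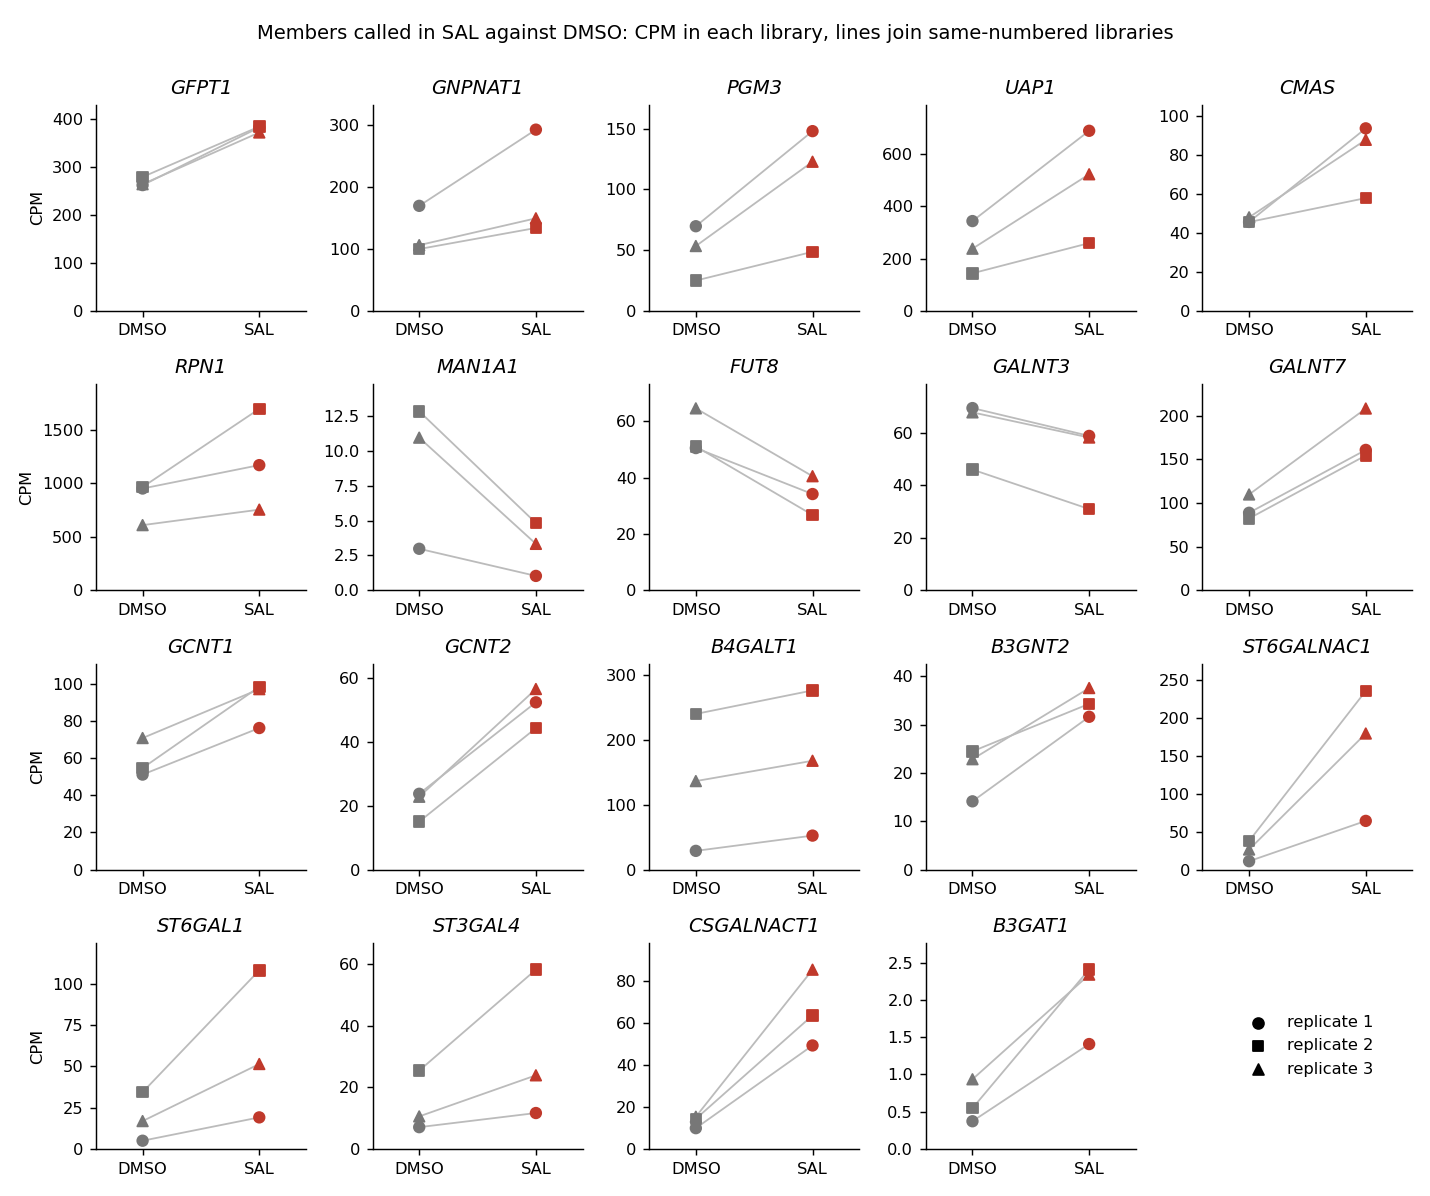
CPM of the 19 members called, 1 panel each with its own axis from 0, in the DMSO (grey) and SAL (red) libraries, with grey lines joining same-numbered libraries and symbols marking the replicate number. All lines of a panel run in the same direction, and in ST6GALNAC1 they climb from 11.03, 37.7 and 26.5 to 64.3, 236 and 179.8 CPM.

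The GALNT enzymes, which attach the first GalNAc to serine or threonine, had 1 member that rose and 1 that fell among the 4 tested. Of all genes tested 11.5% rose and 9.37% fell, and counts this small cannot be set apart from those shares. GALNT7, which prefers peptides that already carry a GalNAc, rose from 88.8, 82.3 and 109.8 CPM in DMSO to 161, 155 and 208 CPM in SAL with no overlap. Its pairs were close to each other, with 0.86, 0.91 and 0.92, and its change was 0.90 (SE 0.09 and adjusted p = 4.49e-06). GALNT3 had 69.4, 45.9 and 67.7 CPM in DMSO and 58.8, 30.9 and 58.2 CPM in SAL. It fell by 0.34 on the log2 scale (SE 0.11 and adjusted p = 0.0371), but the groups overlapped and the call was lost in DESeq2, where the adjusted p was 0.175. Leaving out replicate 2 or replicate 3 lost it as well, with adjusted p-values of 0.151 and 0.199.

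GALNT1 and GALNT2, broadly expressed members of the family, changed by 0.04 (adjusted p = 0.811) and 0.22 (adjusted p = 0.145) and were not called. The raw counts of GALNT12 were 0, 3 and 1 in DMSO against 1, 26 and 16 in SAL. Relative to library size, the summed SAL counts were 9.82 times the summed DMSO counts, with an exact interval from 3.57 to 37.7 that covers counting error only, and SAL replicate 1 held a single count. Without the filter, edgeR gave GALNT12 a log2 fold change of 3.12 (adjusted p = 3.72e-04) from 4 counts in all over its DMSO libraries, and 18 members rose in that fit. In the summed CPM per kb of the 5 GALNT genes, the part of GALNT7 was 24.4%, 26.2% and 27.98% in DMSO and 36.1%, 39.7% and 41.5% in SAL. That of GALNT3 was 23.5%, 18.1% and 21.3% in DMSO and 16.3%, 9.81% and 14.3% in SAL, so that GALNT7 was ahead of GALNT3 in all 6 libraries.

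Among the members listed under O-glycan cores and branches, GCNT1 and GCNT2 rose and the core 1 enzymes did not pass the test. The 3 further genes listed under this role were under the filter on low counts. GCNT2, which makes the branches of I antigen chains, had 23.8, 15.04 and 22.8 CPM in DMSO and 52.5, 44.4 and 56.7 CPM in SAL, with no overlap and log2 differences of 1.13, 1.55 and 1.30 in the pairs. Its change was 1.33 (SE 0.12 and adjusted p = 1.41e-06). GCNT1, which forms core 2, rose from 51.0, 54.6 and 70.7 CPM to 76.1, 98.2 and 97.0 CPM, by 0.63 on the log2 scale (SE 0.10 and adjusted p = 4.54e-04), also without overlap. C1GALT1, the core 1 synthase, had raw counts of 226, 115 and 160 in DMSO against 202, 90 and 197 in SAL, a change of -0.17 (SE 0.16 and adjusted p = 0.519), and its pairs went in different directions. Its chaperone C1GALT1C1 (Cosmc) changed by 0.09 (SE 0.13 and adjusted p = 0.695).

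Chain elongation was led by B3GNT2, which adds GlcNAc to galactose and so builds polylactosamine. It had 14.1, 24.5 and 22.8 CPM in DMSO and 31.6, 34.3 and 37.6 CPM in SAL, without overlap, and rose by 0.77 (SE 0.14 and adjusted p = 0.00103). B4GALT1, which adds galactose to GlcNAc, showed how far the replicates can lie apart, with 28.7, 239.6 and 136 CPM in DMSO and 52.3, 276 and 167 CPM in SAL. The groups overlapped almost wholly, while the pairs rose by 0.86, 0.20 and 0.30, most of it in pair 1. The change of B4GALT1, 0.42 (SE 0.12 and adjusted p = 0.0213), was 0.25 without replicate 1 (adjusted p = 0.0572), and without replicate 3 the adjusted p was 0.138. B4GALT5, a lactosylceramide synthase, changed by 0.01 (SE 0.13 and adjusted p = 0.957) and was not called.

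Early N-glycan assembly, from the lipid-linked precursor to its transfer, held 1 call among its 8 members. Of all genes tested 20.8% were called, and a count this small cannot be set apart from that share. DPAGT1, which starts the lipid-linked precursor, changed by 0.10 (adjusted p = 0.663). ALG2, a mannosyltransferase, changed by 0.18 (adjusted p = 0.235), and ALG5, which makes dolichol-phosphate-glucose, by 0.33 (adjusted p = 0.150). Of the oligosaccharyltransferase, which moves the finished precursor to the protein, the catalytic subunits STT3A and STT3B had 321 ± 42.3 and 261 ± 56.8 CPM in DMSO and 335 ± 43.6 and 282 ± 62.8 CPM in SAL (SD, n = 3). Their changes of 0.07 (SE 0.09) and 0.11 (SE 0.09) did not pass the test (adjusted p = 0.672 and adjusted p = 0.436). Every pair rose slightly, by 0.17, 0.03 and 0.0023 for STT3A and by 0.07, 0.10 and 0.16 for STT3B.

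The member called was RPN1 (ribophorin I), a noncatalytic subunit, which had 952, 966 and 609 CPM in DMSO and 1172, 1699 and 755 CPM in SAL. All pairs rose, but SAL replicate 3 was below 2 of the DMSO libraries. The change was 0.47 (SE 0.11 and adjusted p = 0.00690), of which pair 2 had 0.81 and the other pairs 0.30 and 0.31. The value was 0.29 without replicate 2 (adjusted p = 0.0618) and 0.56 without replicate 3 (adjusted p = 0.113). RPN2 had 348 ± 56.6 CPM in DMSO and 408 ± 28.8 CPM in SAL, a change of 0.24 (SE 0.09 and adjusted p = 0.0843), which became a call without the filter (adjusted p = 0.0464) and without replicate 2 (adjusted p = 0.0380). DDOST, the remaining subunit listed, changed by 0.14 (SE 0.11 and adjusted p = 0.394).

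Later N-glycan processing, with 3 trimming members and 6 branching and fucosylation members tested, held 2 of the 3 members that fell. Of all genes tested 9.37% fell. Of the further genes tested under these roles, 11 for trimming and 6 for branching and fucosylation, 0 fell and 1 under each rose. MAN1A1, a Golgi mannosidase that trims the chain before branching, had 2.97, 12.9 and 10.96 CPM in DMSO and 1.02, 4.82 and 3.33 CPM in SAL. Replicate 1 was low in both groups and made them overlap, while the pairs differed by -1.34, -1.37 and -1.65. The change was -1.54 (SE 0.23 and adjusted p = 1.97e-04), the largest decrease among the members. With 8, 44 and 27 counts in the SAL replicates, its level there is the least precise of those that fell. Its paralog MAN1A2, with 209 ± 77.0 CPM in DMSO and 219.5 ± 53.9 CPM in SAL (SD, n = 3), changed by 0.10 (SE 0.10 and adjusted p = 0.507). Of the summed CPM per kb of the pair, MAN1A1 was 1.71%, 13.6% and 8.75% in DMSO and 0.648%, 4.85% and 2.43% in SAL, so that MAN1A2 was the main form in all 6 libraries.

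FUT8, the alpha-1,6-fucosyltransferase that adds core fucose to N-glycans, was lower in each SAL library than in any DMSO library. It had 50.5, 51.1 and 64.7 CPM in DMSO and 34.2, 26.8 and 40.5 CPM in SAL. The change of FUT8 was -0.72 (SE 0.11 and adjusted p = 2.50e-04), the pairs gave -0.56, -0.93 and -0.67, and the gene lies on chromosome 14, 65877310 to 66210839, plus strand (GRCh37). Exons of FUT8-AS1, annotated on the other strand, cover 11.8% of its exon bases.

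The branching enzymes MGAT1, MGAT2, MGAT4A and MGAT5, which add GlcNAc arms to the trimmed N-glycan, were not called. Their log2 fold changes were 0.02, 0.36, 0.13 and -0.17, with adjusted p-values of 0.912, 0.252, 0.670 and 0.255. Exons of a noncoding gene on the other strand cover 92.0% of the exon bases of MGAT2, whose counts (53, 70 and 37 in DMSO and 50, 128 and 57 in SAL) are uncertain for that reason. The Golgi mannosidase MAN2A1 changed by 0.06 (adjusted p = 0.737) and FUT11, of the fucosyltransferase family, by 0.31 (adjusted p = 0.0841), the latter higher in all 3 pairs.

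The promoters of GCNT2 and FUT8 are shown because they were the only called members whose window held the androgen half-site. The sequences are 250 bases upstream of the RefSeq start, both on the plus strand, at chr6:10521101-10521350 and chr14:65410342-65410591 in GRCh38.p14, with the half-site, here as TGTTCT, in capitals.
GCNT2: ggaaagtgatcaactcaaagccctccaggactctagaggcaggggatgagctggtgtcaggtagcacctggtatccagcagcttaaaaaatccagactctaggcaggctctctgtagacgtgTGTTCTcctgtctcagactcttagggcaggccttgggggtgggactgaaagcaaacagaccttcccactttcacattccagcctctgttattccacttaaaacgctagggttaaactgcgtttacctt
FUT8: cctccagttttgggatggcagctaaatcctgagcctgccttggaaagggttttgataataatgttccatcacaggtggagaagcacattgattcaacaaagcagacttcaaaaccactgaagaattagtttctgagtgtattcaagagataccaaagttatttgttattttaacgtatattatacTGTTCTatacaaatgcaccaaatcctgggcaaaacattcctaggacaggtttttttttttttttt
GCNT2 rose and FUT8 fell, and the half-site is also in 14.8% of all RefSeq promoters.

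Of the 3 members that act on proteoglycans or sulfated glycans, only CSGALNACT1 had a level above a few CPM. CSGALNACT1, which starts chondroitin sulfate chains, had 9.91, 14.4 and 15.4 CPM in DMSO and 49.4, 63.8 and 85.6 CPM in SAL. The lowest SAL library had over 3 times the highest DMSO library, and the pairs rose by 2.29, 2.13 and 2.46. Its fold change was 4.98, or 2.32 on the log2 scale (SE 0.12 and adjusted p = 3.66e-09), the second largest increase after ST6GALNAC1. B3GAT1, which makes the glucuronic acid part of the HNK-1 epitope, had few reads, 3, 4 and 7 counts in DMSO against 11, 22 and 19 in SAL. It passed the filter through its SAL libraries alone, so its change of 1.72 (SE 0.46 and adjusted p = 0.0139) is a description of a low gene. Without replicate 2 its adjusted p was 0.0799 and without replicate 3 it was 0.0737. CHST2, a GlcNAc 6-sulfotransferase, had 6, 18 and 4 counts in DMSO and 2, 24 and 9 counts in SAL, and a difference was not detectable at this depth.

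**Figure D4:**
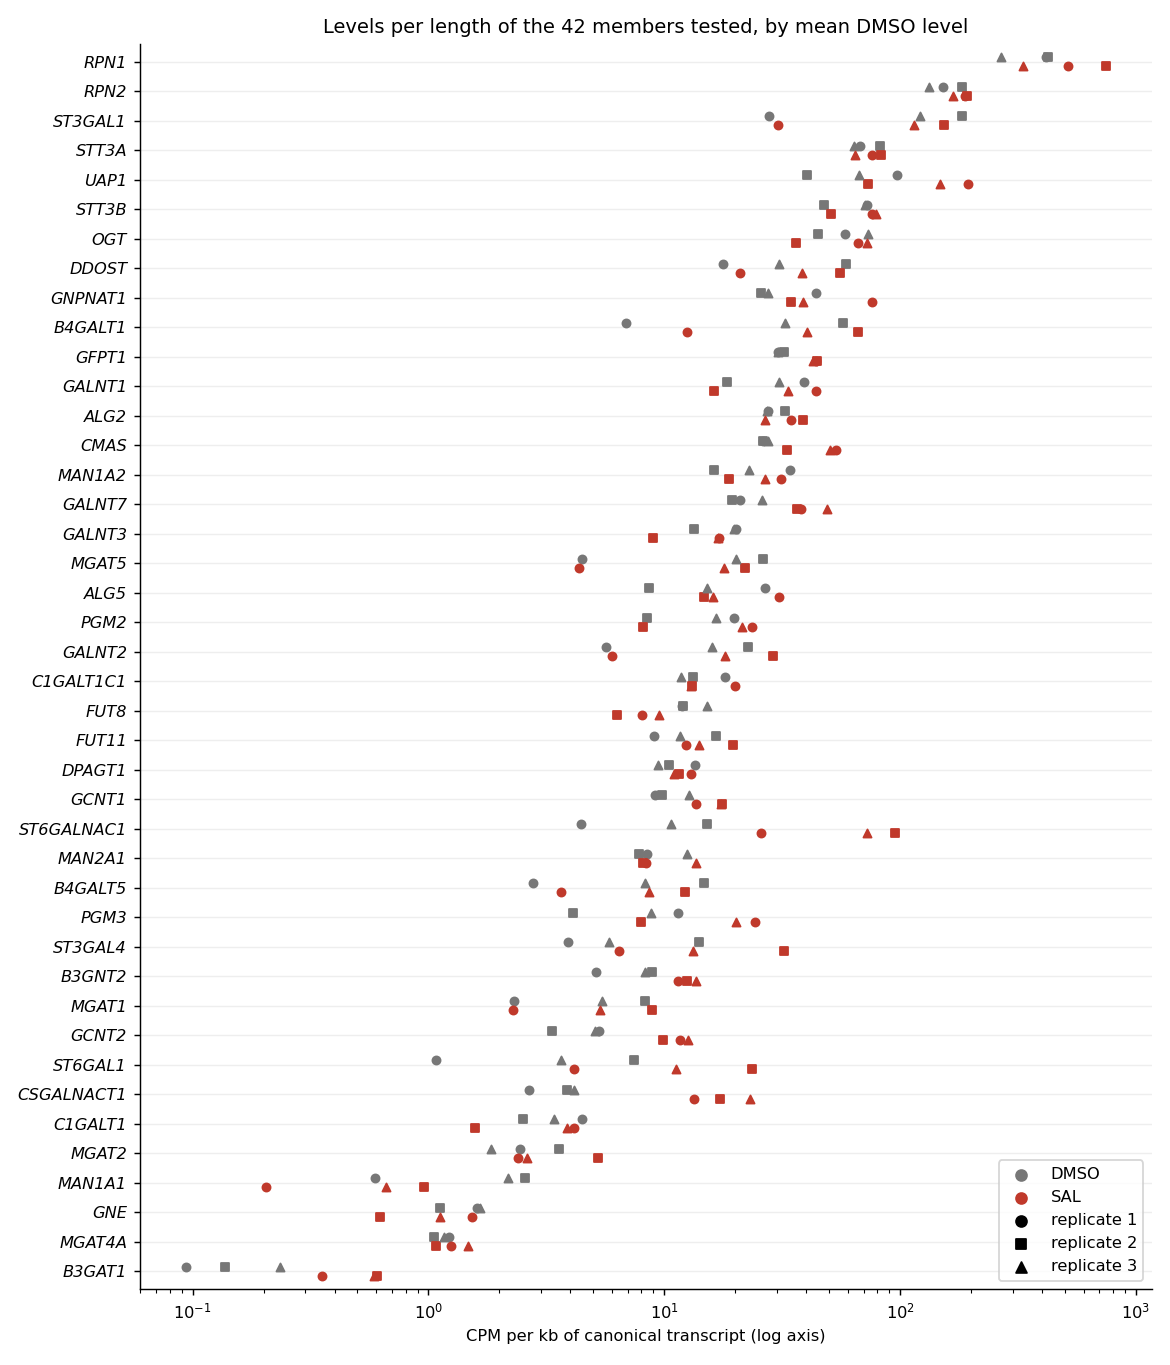
CPM per kb of canonical transcript (log axis) of the 42 members tested, in order of their mean level in DMSO, with DMSO libraries in grey, SAL libraries in red and symbols for the replicate number. RPN1 is at the top and B3GAT1 at the bottom, and the red symbols of ST6GALNAC1 and CSGALNACT1 stand clear of the grey ones.

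Set per kb of canonical transcript, the levels in DMSO covered more than 3 orders of magnitude. RPN1 was highest with 369 ± 88.5 CPM per kb, followed by RPN2 with 156 ± 25.4 and ST3GAL1 with 111 ± 77.9 (SD, n = 3), and RPN2 and ST3GAL1 overlapped in their spread. STT3A, UAP1, STT3B and OGT came next with 71.2, 67.9, 63.6 and 58.9 CPM per kb, which could not be separated by their spread. In SAL, UAP1 reached 138 ± 61.0 CPM per kb and ST6GALNAC1 64.3 ± 35.2, against 10.1 ± 5.39 in DMSO. Among the 4 hexosamine pathway members PGM3 was the lowest, with 8.11 ± 3.72 CPM per kb in DMSO and 17.5 ± 8.50 in SAL, and UAP1 the highest in both groups.

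Beyond the members, 155 other genes of sugar supply and glycan synthesis were listed. Of the 135 tested, 16 rose and 8 fell (11.9% and 5.93%), beside 11.5% and 9.37% of all genes tested, with a median log2 fold change of 0.13. Of the 21 further genes of the lipid-linked precursor, none was called by edgeR or by DESeq2 (7 and 0 had an unadjusted p under 0.05). By edgeR 20.8% of all genes tested were called. Of the 21, 12 had a higher value in SAL and 9 a lower one, where 49.8% of all genes tested were higher. Among the 155, the 10 with the smallest adjusted p are named here. EDEM3, which trims mannose from misfolded glycoproteins, rose from 88.3, 88.6 and 149.7 CPM in DMSO to 193, 180.1 and 292 CPM in SAL, a change of 1.04 (SE 0.09 and adjusted p = 1.05e-06) with no overlap.

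In sugar supply, NANS, the sialic acid synthase between GNE and CMAS, rose by 0.59 (SE 0.10 and adjusted p = 5.76e-04) and GMDS, which starts GDP-fucose synthesis, by 0.72 (SE 0.11 and adjusted p = 1.51e-04). HK1, a hexokinase, rose by 0.63 (SE 0.10 and adjusted p = 2.78e-04). TUSC3, an oligosaccharyltransferase subunit, rose by 0.65 (SE 0.11 and adjusted p = 6.73e-04), and its groups did not overlap. CHPF, a chondroitin polymerizing factor, and EXTL2, a glycosyltransferase of glycosaminoglycan linkers, rose by 1.06 (adjusted p = 5.58e-05) and 0.55 (adjusted p = 6.94e-04). B3GALT4, a galactosyltransferase of gangliosides, rose by 1.60 (adjusted p = 2.84e-04) from a low level of 1.24, 4.65 and 3.21 CPM in DMSO. B4GALT6, like B4GALT5 a lactosylceramide synthase, fell by 0.81 (SE 0.14 and adjusted p = 6.40e-04), and DSE, the dermatan sulfate epimerase, by 0.80 (SE 0.20 and adjusted p = 0.00844). Without replicate 3 the adjusted p was 0.0839 for DSE, 0.0677 for EXTL2 and 0.05002 for NANS, and DESeq2 gave 0.0539 for DSE.

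**Figure D5:**
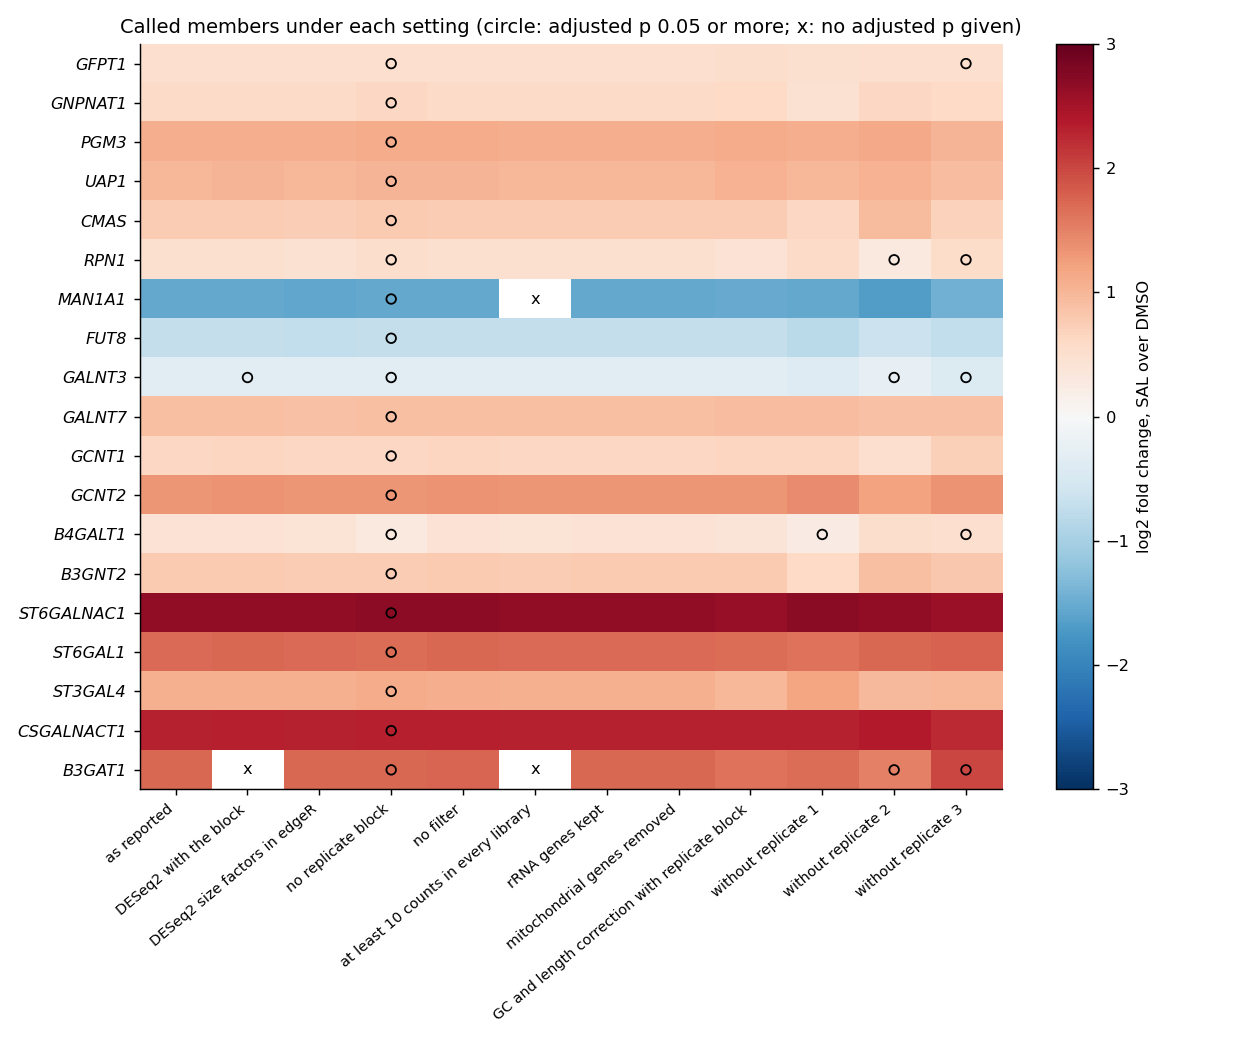
Log2 fold change of SAL over DMSO (colour) of the 19 members called, in rows, under the reported fit and each alternative, in columns, with a circle where the adjusted p is 0.05 or more, and a cross where the gene was filtered out or given no adjusted p. The colour of a row is nearly constant, the column without replicate block has circles in all 19 rows, and the column without replicate 3 in 5.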

How the data were processed

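Total RNA of the 6 C4-2 cultures was sequenced with a stranded total RNA kit, and the deposited tables hold raw counts per gene for each library. Per the study's methods, the authors used the first read of each pair, aligned it with TopHat2 2.1.0 and Bowtie to hg19 and made the counts with HTSeq 0.11.2, without strand, over GENCODE 19 genes (tool versions as in the submitters' processing notes). They removed rRNA genes and tested in pairs.

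Here, 523 rRNA symbols were removed and the rest filtered with filterByExpr, which left 16835 genes. Counts were tested with the quasi-likelihood F test of edgeR 4.0.16 in R 4.3.3 (TMM, robust) with the replicate number as a block, two-sided, with Benjamini-Hochberg adjustment over all genes tested. Standard errors were taken from the log2 fold change and the root of its F statistic. Log2 CPM in the pair differences carry a prior count of 2. Deviations from the group means of same-numbered libraries correlated at 0.89, 0.86 and 0.74 in replicates 1, 2 and 3, and the pairing follows the study's methods. The p-values measure the spread that is left between these libraries once the replicate block is taken out. The fit was tested on simulated data of 16282 genes, of which 198 were given a change. It called 88.4% of these 198, all in the true direction. The changes given were larger than those of many members called, and fewer genes were changed than were called in these data. The 88.4% therefore does not hold for such members. Of the calls made by the fit, 9.33% were genes given no change, which is above the threshold of 0.05. Among the genes given no change, 4.81% had an unadjusted p under 0.05 in edgeR.

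Reads that HTSeq gave to no feature stayed out of library sizes. They were 24.0% to 48.3% of the reads tallied per library, and rRNA genes took 11.9% to 27.8% of the counts on genes. Symbols were matched to GENCODE 44 positions lifted to GRCh37 (33529 current and 1926 older symbols), a later annotation than the one counted. GC content and exon length were known for 84.0% of the genes tested. Promoters are from RefSeq (GRCh38.p14).

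The members and lists were chosen with earlier results of these data known. Values in each library are given for all members called. Of the 155 other genes of the pathway, the 10 called with the smallest adjusted p are named. As alternatives, the fit was repeated with DESeq2 1.42.0 (block kept), with DESeq2 size factors, and without the block. The filter was dropped, or raised to 10 counts per library throughout. The rRNA genes were put back, the mitochondrial ones taken out, and libraries adjusted for GC content and length in the blocked fit. Finally, each replicate number was omitted in turn, and calls were limited to an adjusted p under 0.01 or to log2 changes of 0.5 or more in size.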

Additional observations from a re-analysis of the deposited data

How the results depend on the processing

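Among the 19 members called, 14 kept their call and direction in every alternative that gave them an adjusted p, except the fit with no replicate block. The other 5 were GFPT1, RPN1, GALNT3, B4GALT1 and B3GAT1, each lost without replicate 3. With no replicate block, so with the pairing ignored, 0 members rose and 0 fell, 0 and 0 other genes of the pathway were called, and 18 genes rose and 3 fell among all tested. The number of members that rose ran from 12 to 17 with 1 replicate number left out, and of those that fell from 2 to 3, while their median log2 fold change ran from 0.19 to 0.24 over the alternatives. Of the other genes of the pathway, 6 to 21 rose and 1 to 9 fell with a replicate number left out, and of all genes 750 to 2443 rose and 483 to 1955 fell, in each case with the fewest calls without replicate 3. DESeq2 called 10 other genes of the pathway up and 2 down, and 853 genes down among all. With at least 10 counts in every library 5 other genes of the pathway fell. An adjusted p under 0.01 left 9 up and 3 down among them, and 1234 up and 876 down among all genes.

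The log2 fold change took either sign in 6 members that were not called. With a replicate number left out it ran from -0.16 to 0.064 in OGT, from -0.035 to 0.047 in MGAT1, from -0.021 to 0.13 in GALNT1, from -0.37 to 0.011 in C1GALT1, from -0.12 to 0.18 in B4GALT5 and from -0.17 to 0.0029 in ST3GAL1. With the GC and length correction it was -0.052 in MGAT1 and -0.0068 in B4GALT5, and with no replicate block -0.072 in B4GALT5. GALNT2 became a call without replicate 1 (adjusted p = 0.0482). The cause of these differences was not tested. With 3 libraries a group, members with few counts (B3GAT1, GALNT12, CHST2) are limited by depth.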

Other observations

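Of 10 sialyltransferases outside the members, 8 were tested, 0 rose by edgeR (1 had a higher value in SAL with an unadjusted p under 0.05) and 3 fell, while 9.37% of all genes tested fell. These 3 are named after their values were seen. ST6GALNAC4, which sialylates core 1 chains that already carry a sialic acid, had 6.44, 24.9 and 9.35 CPM in DMSO and 3.20, 18.5 and 6.53 CPM in SAL, a log2 fold change of -0.58 (SE 0.19 and adjusted p = 0.0366). The call was lost in DESeq2 (adjusted p = 0.173) and without replicate 1, 2 or 3, with adjusted p-values of 0.0712, 0.0768 and 0.170.

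The other two were low and their DMSO libraries alone took them past the filter, so their values describe low genes. ST6GALNAC2 had 21, 22 and 18 counts in DMSO and 5, 11 and 14 in SAL, a change of -1.18 (SE 0.39 and adjusted p = 0.0455), which was not called in DESeq2 (adjusted p = 0.249) or without replicate 1, 2 or 3 (lowest adjusted p = 0.0775). ST8SIA4, a polysialyltransferase, had 45, 17 and 28 counts in DMSO and 26, 4 and 4 in SAL and changed by -1.60 (SE 0.41 and adjusted p = 0.0114), and without replicate 3 its adjusted p was 0.145.

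Of 13 nucleotide sugar transporters, which carry the activated sugars into the Golgi and the endoplasmic reticulum, 12 had a higher value in SAL, as had 49.8% of all genes tested, and 1 was called up. This was SLC35D2 (log2 fold change 0.56, SE 0.17 and adjusted p = 0.0281), named after its values were seen. It was not called in DESeq2 (adjusted p = 0.129) or without replicate 1, 2 or 3 (lowest adjusted p = 0.0536). Among 17 genes of other sugar nucleotides 3 rose, or 17.6%, beside 11.5% of all genes tested. NANP, the phosphatase of the step after NANS, fell by 0.56 (SE 0.15 and adjusted p = 0.0119) and is also named after its values were seen. Its adjusted p was 0.0675 in DESeq2 and 0.251 without replicate 3.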
